A study of Mus musculus with 8 samples.

Results

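The transcripts described here encode telomerase and the proteins that sit on mouse telomeres, 10 genes in all. They are Tert and Dkc1 of telomerase, the shelterin genes Terf1, Terf2, Terf2ip, Tinf2, Acd, Pot1a and Pot1b, and Rif1. The rule lists them by name and sets no threshold on their values, and all 10 were found among the 23389 gene symbols of each deposited table. Gene expression was measured by RNA-seq of poly-A RNA in 8 libraries, 2 in each of 4 groups. The 3F+IL6 iPS clones are induced pluripotent stem cells derived from embryonic fibroblasts of the BALB/c background with Oct4, Klf4 and Sox2 and treated with IL6 at 10 ng/mL. The 4F iPS clones are BALB/c cells labelled as made with 4 factors, which the labels do not spell out. In both kinds each library is 1 clone derived on its own, so the spread between a pair of clones includes the difference between clones. The ES cells are the D3 GFP embryonic stem cell line of the 129S2/SvPas background, and the MEF are BALB/c embryonic fibroblasts; the 2 libraries of each are biological replicates. No genetic change beyond the reprogramming factors and the GFP of the ES line is given for any group. Because the ES cells alone are 129S2/SvPas, strain and cell type cannot be told apart in any comparison with them. The set of factors and IL6 differ together between the kinds of clone.

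Telomeres are repeats of TTAGGG that shorten as cells divide. Telomerase lengthens them: its reverse transcriptase, TERT, copies the template RNA Terc, which dyskerin (Dkc1) and its partners hold in a stable particle. Shelterin covers the repeats and keeps the chromosome end from being read as a break. TRF1 (Terf1) and TRF2 (Terf2) bind the double-stranded repeats, RAP1 (Terf2ip) rides on TRF2, TIN2 (Tinf2) joins both to TPP1 (Acd), and TPP1 carries POT1 to the single-stranded overhang and also recruits telomerase. The mouse has a pair of POT1 proteins, encoded by Pot1a and Pot1b, where human cells have a single POT1. RIF1 was named as a telomere protein in yeast; in mouse cells it is known for its work at DNA breaks and in setting replication timing, and it is abundant in ES cells. Pluripotent stem cells are known for active telomerase, and telomeres lengthen during and after reprogramming. Transcript levels are reported below; telomere length, telomerase activity and protein were not measured.

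Promoter windows are shown for Tert, whose level set the clones apart from the ES cells. They are also shown for Terf2, which was higher in ES cells than in all other groups. Windows of the duplicated pair Pot1a and Pot1b follow, whose ratio in every clone lay above that of every ES and MEF library. RefSeq (GRCm38.p6) gave a window for 8 of the 10 genes; Terf1 and Rif1 were not matched. Each sequence is the 250 bases before the start of the gene, 5′ to 3′ on the gene's own strand. Capitals mark matches, on either strand, to 4 motifs: the E-box CACGTG (known as a site of MYC with MAX), the GC box GGGCGG, the CCAAT box, and the telomere repeat TTAGGG. The Tert window lies at chr13:73626661-73626910 (plus strand), that of Terf2 at chr8:107096546-107096795 (minus), that of Pot1a at chr6:25809219-25809468 (minus) and that of Pot1b at chr17:55712637-55712886 (minus).
Tert: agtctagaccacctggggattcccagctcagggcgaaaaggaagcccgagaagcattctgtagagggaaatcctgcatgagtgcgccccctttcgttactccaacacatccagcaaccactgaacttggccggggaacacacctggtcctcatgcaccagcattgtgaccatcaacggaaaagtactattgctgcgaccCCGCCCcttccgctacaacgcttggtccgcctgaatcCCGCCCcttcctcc
Terf2: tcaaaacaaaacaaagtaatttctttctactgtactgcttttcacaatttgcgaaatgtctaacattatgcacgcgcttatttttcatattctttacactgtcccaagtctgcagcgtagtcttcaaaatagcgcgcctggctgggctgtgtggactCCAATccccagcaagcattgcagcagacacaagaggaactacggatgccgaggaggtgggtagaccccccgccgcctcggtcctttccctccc
Pot1a: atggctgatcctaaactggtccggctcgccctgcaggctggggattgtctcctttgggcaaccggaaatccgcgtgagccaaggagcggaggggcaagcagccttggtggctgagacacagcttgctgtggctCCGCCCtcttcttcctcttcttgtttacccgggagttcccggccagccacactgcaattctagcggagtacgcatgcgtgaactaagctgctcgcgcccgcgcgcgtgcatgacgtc
Pot1b: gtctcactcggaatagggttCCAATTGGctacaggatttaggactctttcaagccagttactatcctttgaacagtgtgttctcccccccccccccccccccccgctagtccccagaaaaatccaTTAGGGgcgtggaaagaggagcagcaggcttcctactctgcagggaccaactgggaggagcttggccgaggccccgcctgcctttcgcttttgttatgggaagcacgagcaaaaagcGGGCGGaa
The Tert window holds 2 GC boxes, read as CCGCCC on the printed strand, the first bases 51 and 14 bases before the start, and no E-box. GC boxes were found in 3 of the 8 windows (Tert, Pot1a and Pot1b), against 32.97% of all 32536 RefSeq windows of the same length, and CCAAT in 3 of 8 (Terf2, Acd and Pot1b), against 33.81%. In Pot1b the CCAAT box is matched on both strands by overlapping letters, and Pot1b alone of the 8 holds a TTAGGG, a word found in 9.34% of all windows. No E-box was found in any of the 8, against 6.04% of all windows. A match is only a run of letters, and no binding was measured here.

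Values are RPKM, reads scaled to gene length and library size, and fitted differences are on the log2(RPKM + 1) scale, on which a change looks smaller in a gene with low RPKM. limma was fitted to all 8 libraries over 13200 genes, and "higher", "lower", "rose" and "fell" mean a Benjamini-Hochberg adjusted p under 0.05 over all of these genes. All 10 genes passed the filter on low values. In bulk RNA, more cells of a type and more RNA per cell cannot be told apart. Depth was estimated at 11700000 to 18150000 reads. Pearson correlations across genes were 0.9841 within the 3F+IL6 pair, 0.9935 within the 4F pair, 0.9946 within ES and 0.9964 within MEF. Pairs of a 3F+IL6 and a 4F clone gave 0.9774 to 0.9886; 3F+IL6 clone 1 was closer to each 4F clone than to 3F+IL6 clone 2. Markers of the labelled cell types were summed, and a few abundant genes rule such sums. The sum of 8 pluripotent cell markers was 4973 to 6110 RPKM in the 6 clone and ES libraries and 6.81 and 8.51 in MEF. The sum of 8 fibroblast markers was 169 and 259 RPKM in 3F+IL6 clones, 159 and 134 in 4F clones, 4.90 and 5.12 in ES cells, against 2518 and 2502 in MEF. Marker by marker, the clones also differed from the other groups. All 8 pluripotent markers were higher in each kind of clone than in MEF. Against ES cells, 3 of the 8 (Nanog, Esrrb and Zfp42) were lower in each kind of clone and 1 was higher. Among all genes tested, 30.3% were lower than in ES cells and 33.1% higher in 3F+IL6 clones. In 4F clones 33.5% were lower and 33.7% higher. Of the 8 fibroblast markers, Dcn and Lum were higher in 3F+IL6 clones than in MEF, calls lost without MEF 1 or MEF 2, and 6 were lower. All 8 fibroblast markers were higher in both kinds of clone than in ES cells. None of the 8 was at 0 in both libraries of a group, and their part in the differences between clones and ES cells was not tested.

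Against MEF, 9 of the 10 genes were higher and none was lower in 3F+IL6 clones, in 4F clones and in ES cells alike, while 49.4%, 49.2% and 49.7% of all genes tested were higher and 32.6%, 34.4% and 32% lower in the same comparisons. The exception was Terf2 in both kinds of clone and Tert in ES cells. These counts depended on scaling. With quantile normalization 7 were higher in 3F+IL6 clones and 8 in ES cells. With median centring or quantile normalization Terf2 was called lower in both kinds of clone, and Pot1b was no longer called in 4F clones. The median difference of the 10 genes was 1.24 for 3F+IL6 clones, 1.36 for 4F clones and 1.15 for ES cells on the log2 scale, beside 0.26, 0.25 and 0.27 for all genes. These 3 comparisons share the MEF libraries and are not separate evidence. Dividing-cell genes moved with them as a sum. The sum of 8 such genes was 1163 to 1263 RPKM in the 6 clone and ES libraries, against 346 and 358 in MEF. All 8 were higher than MEF in each kind of clone, but 6 of the 8 in ES cells. The part of these genes in the difference was not tested. Against ES cells, 2 of the 10 genes were higher (33.1% of all genes) and 4 lower (30.3%) in 3F+IL6 clones, and 1 was higher (33.7%) and 4 were lower (33.5%) in 4F clones. The 3F+IL6 counts became 1 higher and 2 lower in the fit of those 4 libraries alone and without ES 1 or ES 2, and the 4F count of lower genes became 2 without 4F clone 1. Between 3F+IL6 and 4F clones limma called 0 of the 10, beside 1.34% of all genes; 1 of the 10, Tert, had an unadjusted p under 0.05.

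**Figure D1:**
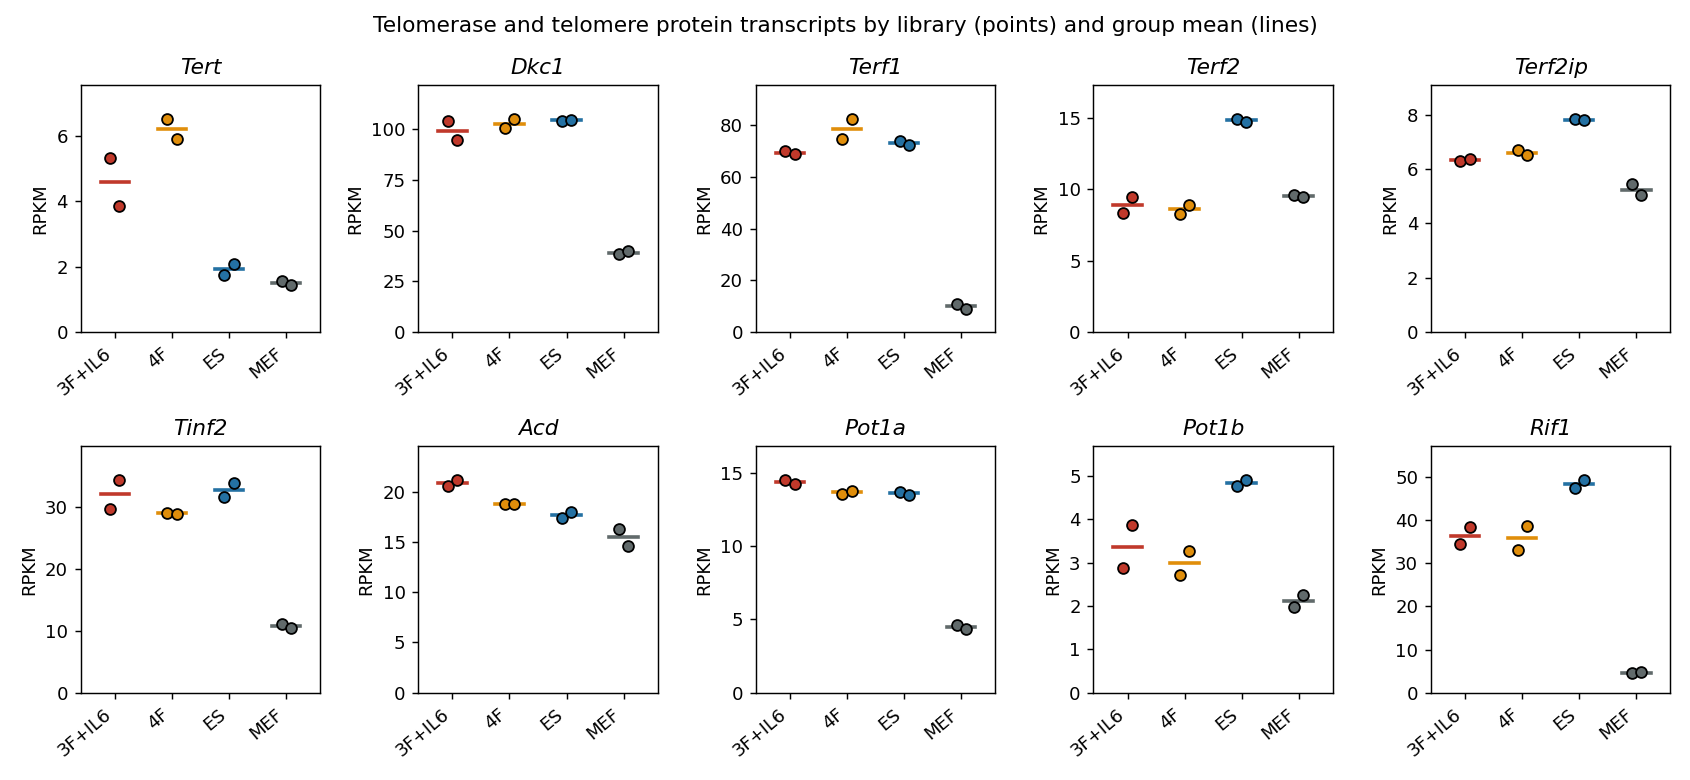
RPKM of each of the 10 genes (vertical axes, from 0) in every library; points are libraries, lines are group means, and the groups run from 3F+IL6 and 4F iPS clones to ES cells and MEF. Tert was at 3.86 to 6.51 RPKM in the clones and at 1.42 to 2.08 in ES cells and MEF, while Terf1 and Rif1 were low in MEF alone.

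Tert (chromosome 13, 73626911 to 73649843, mm10) encodes the catalytic subunit of telomerase. It was at 5.33 and 3.86 RPKM in 3F+IL6 clones, 6.51 and 5.91 in 4F clones, 1.76 and 2.08 in ES cells, against 1.55 and 1.42 in MEF. All 4 clones lay above all 4 other libraries. The mean in 3F+IL6 clones was 4.59 ± 1.04 RPKM (SD, n = 2) and that in ES cells 1.92 ± 0.227, a ratio of 2.40; on the log2 scale Tert was 0.93 higher (SE 0.14, limma adjusted p = 0.00116). For 4F clones, at 6.21 ± 0.422 RPKM (SD, n = 2), the ratio to ES cells was 3.24 and the log2 difference 1.31 (SE 0.14, limma adjusted p = 0.000224). Over MEF, at 1.49 ± 0.0909 RPKM, the ratios were 3.09 for 3F+IL6 and 4.17 for 4F clones. These differences from ES cells and MEF were called in every alternative that tested Tert. ES cells were 1.29 times MEF, a log2 difference of 0.23 that did not pass the test (95% interval −0.11 to 0.56, limma adjusted p = 0.171). Tert was the one gene of the 10 that did not pass in ES cells against MEF, although each ES library was above each MEF library. It was called there in the fit of the ES and MEF libraries alone and without either 3F+IL6 clone. Fibroblast markers moved with the difference between clones and ES cells, and their part in it was not tested.

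Both 3F+IL6 clones had lower Tert values than both 4F clones. The values of Terf1, Terf2ip, Tinf2, Acd and Pot1a did not overlap between the kinds of clone either. An exact test of 2 libraries against 2 cannot give a p below 0.333. The log2 difference of 3F+IL6 against 4F was −0.38 (SE 0.14, 95% interval −0.71 to −0.04), but limma's adjusted p of 0.169 missed the threshold. The value turned on which 3F+IL6 clone was kept: without 3F+IL6 clone 1 it was −0.57 and passed, and without 3F+IL6 clone 2 it was −0.19 (adjusted p = 0.326). The 3F+IL6 pair itself differed 1.38 times in Tert, the widest pair of any group for this gene. At the estimated depths Tert rested on about 306 and 235 reads in 3F+IL6 clones, 328 and 317 in 4F clones, 119 and 133 in ES cells, against 117 and 111 in MEF. Counting error alone is then 5.52% to 9.47% of each value, smaller than the step between clones and ES cells.

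Dkc1 (chromosome X, 75095854 to 75109777), which encodes dyskerin, was the most abundant of the 10 per length in every library. Its level was 104.0 and 94.4 RPKM in 3F+IL6 clones, 100.3 and 104.9 in 4F clones, 104.2 and 104.6 in ES cells, against 38.5 and 39.8 in MEF. The 6 pluripotent libraries lay within 94.4 to 104.9 RPKM, all far above MEF. Log2 differences from MEF were 1.32 for 3F+IL6 clones, 1.37 for 4F clones and 1.39 for ES cells (SE 0.06 each; limma adjusted p = 1.01e-06, 7.86e-07 and 6.97e-07). Against ES cells the difference was −0.08 for 3F+IL6 (95% interval −0.22 to 0.07) and −0.02 for 4F clones (−0.17 to 0.12). The ratio of these telomerase genes is given as a description and was not tested. Tert per Dkc1 was 0.0512 and 0.0409 in 3F+IL6 clones and 0.0649 and 0.0563 in 4F clones. It was 0.0169 and 0.0198 in ES cells, against 0.0403 and 0.0358 in MEF. The lower 3F+IL6 value was close to the higher MEF value. By this ratio ES cells, not MEF, were lowest.

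Of the 12 other genes listed for the telomerase RNA and its assembly, 10 rose against MEF in 3F+IL6 clones, 10 in 4F clones and 9 in ES cells, and 0 fell, where 49.4%, 49.2% and 49.7% of all genes tested were higher. Nhp2 and Nop10, whose proteins sit beside dyskerin in the H/ACA particle, were also higher in the clones than in ES cells. Nop10 was at 144 and 152 RPKM in 3F+IL6 clones, 152 and 139 in 4F clones, 115 and 107 in ES cells, against 45.5 and 44.8 in MEF. The AAA+ ATPases Ruvbl1 and Ruvbl2, needed for particle assembly, were likewise higher in the clones than in ES cells. Ruvbl2 was at 247 and 238 RPKM in 3F+IL6 clones, 299 and 282 in 4F clones, 134 and 134 in ES cells, against 60.7 and 62.1 in MEF. Its log2 difference from ES cells was 0.85 in 3F+IL6 and 1.11 in 4F clones (SE 0.05; limma adjusted p = 1.6e-05 and 6.3e-06), and its difference between 3F+IL6 and 4F clones was −0.26 (adjusted p = 0.054). The list as a whole had no single direction against ES cells: 5 rose and 3 fell in each kind of clone. Over all genes tested, 33.1% were higher and 30.3% lower in 3F+IL6 clones, and 33.7% higher and 33.5% lower in 4F clones. Terc itself, which is not among the 10 and was looked at after its values were seen, has no poly-A tail. It was at 0 and 0.197 RPKM in 3F+IL6 clones, 1.66 and 2.45 in 4F clones, 0 and 1.68 in ES cells, against 0.315 and 0 in MEF. The libraries differed in how much other RNA without a poly-A tail they held. The sum of Rn45s, Rpph1 and Rmrp was 64.9 and 60.8 RPKM in 3F+IL6 clones, 610.4 and 596.1 in 4F clones, 89.8 and 704.1 in ES cells, against 46.5 and 267.5 in MEF. The part of those RNAs' level in the Terc values was not tested.

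Terf1 (chromosome 1, 15805646 to 15844052) encodes TRF1, which binds the double-stranded repeats and helps forks pass through them. It was at 69.9 and 68.8 RPKM in 3F+IL6 clones, 74.7 and 82.4 in 4F clones, 73.8 and 72.3 in ES cells, against 10.8 and 9.0 in MEF. The 6 pluripotent libraries stood clear of the fibroblasts, at 6.99, 7.92 and 7.37 times the MEF mean for 3F+IL6, 4F and ES. The log2 differences from MEF were 2.69, 2.87 and 2.77 in the same order (SE 0.09 each; limma adjusted p = 2.51e-07, 1.81e-07 and 1.93e-07). Against ES cells the difference was −0.07 for 3F+IL6 clones (95% interval −0.28 to 0.13) and 0.10 for 4F clones (−0.11 to 0.31). Neither passed the test.

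Terf2 (chromosome 8, 107069400 to 107096547) encodes TRF2, which in fibroblasts keeps chromosome ends from being joined. It followed another order. The values were 8.35 and 9.42 RPKM in 3F+IL6 clones, 8.28 and 8.91 in 4F clones, 14.9 and 14.7 in ES cells, against 9.58 and 9.48 in MEF. ES cells were highest, and the clones lay just under the fibroblasts without passing the test. Terf2 fell by 0.68 in 3F+IL6 and by 0.72 in 4F clones against ES cells on the log2 scale (SE 0.08; limma adjusted p = 0.000384 and 0.000266). Relative to MEF the difference was −0.09 in 3F+IL6 (95% interval −0.28 to 0.10) and −0.14 in 4F clones (−0.33 to 0.06). Those last comparisons depended on scaling. With the libraries centred on their medians both kinds of clone were called lower than MEF (−0.21 each), and with quantile normalization also (−0.22 each). As a result the ratio of Terf1 to Terf2 was 8.37 and 7.31 in 3F+IL6 clones, 9.02 and 9.25 in 4F clones, 4.95 and 4.91 in ES cells, against 1.13 and 0.95 in MEF. The 4 groups did not overlap in that ratio; with 2 libraries against 2, an exact test cannot give a p below 0.333.

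Terf2ip (chromosome 8, 112011398 to 112020528) encodes RAP1, the partner of TRF2. It was at 6.28 and 6.38 RPKM in 3F+IL6 clones, 6.68 and 6.50 in 4F clones, 7.83 and 7.78 in ES cells, against 5.44 and 5.02 in MEF. The order was ES cells, clones, then fibroblasts, over a narrow range. It fell against ES cells by 0.27 in 3F+IL6 and 0.21 in 4F clones on the log2 scale (SE 0.08; limma adjusted p = 0.0195 and 0.0412). The 4F call was lost in 8 of 16 alternatives and the 3F+IL6 call in 3, namely the fit of those 4 libraries alone and without either ES library. Against MEF it was higher by 0.23 in 3F+IL6 clones, a call lost in 7 of 16, by 0.29 in 4F clones, lost without MEF 2, and by 0.50 in ES cells.

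Tinf2 (chromosome 14, 55674689 to 55681820) encodes TIN2, the hub that ties TRF1 and TRF2 to TPP1. It was at 29.7 and 34.4 RPKM in 3F+IL6 clones, 29.1 and 28.9 in 4F clones, 31.7 and 34 in ES cells, against 11.1 and 10.4 in MEF. The pluripotent groups overlapped or lay close, and all were above MEF by 1.49, 1.35 and 1.52 on the log2 scale for 3F+IL6, 4F and ES (SE 0.08 each; limma adjusted p = 2.77e-06, 4.21e-06 and 2.29e-06). The difference from ES cells was −0.03 for 3F+IL6 (95% interval −0.23 to 0.16) and −0.17 for 4F clones (−0.37 to 0.03). Of the 50-base words of Tinf2, 35.96% also occur in other genes, most of these in Gmpr2, which overlaps it on the opposite strand, and this library kit does not record strand. Gmpr2 was at 15.5 to 17.8 RPKM in the pluripotent libraries and at 20.7 and 20.8 in MEF, the opposite direction to Tinf2.

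Acd (chromosome 8, 105695860 to 105701102), which encodes TPP1, varied over a narrow range. It was at 20.5 and 21.2 RPKM in 3F+IL6 clones, 18.7 and 18.7 in 4F clones, 17.3 and 17.9 in ES cells, against 16.3 and 14.6 in MEF. The groups did not overlap, with 3F+IL6 clones highest, but the steps were small. In 3F+IL6 clones it was higher than in ES cells by 0.23 (SE 0.07, limma adjusted p = 0.0237), a call lost in the fit of those 4 libraries alone and without ES 1 or ES 2. In 4F clones the difference from ES cells was 0.08 (95% interval −0.08 to 0.25). Against MEF it was higher by 0.41 in 3F+IL6 clones, by 0.26 in 4F clones and by 0.18 in ES cells; the 4F call was lost without MEF 2, and the ES call (adjusted p = 0.044) in 9 of 16 alternatives. Carmil2, listed as Rltpr, overlaps Acd on the opposite strand over 26.02% of its 50-base words. It was at 2.97 to 4.10 RPKM in the pluripotent libraries and at 0.356 and 0.283 in MEF, so reads of the pair could be shared, and the size of that effect was not tested.

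Pot1a (chromosome 6, 25743737 to 25809246) encodes the POT1 protein that in mouse holds back the ATR response at the overhang. Its level was 14.5 and 14.2 RPKM in 3F+IL6 clones, 13.6 and 13.7 in 4F clones, 13.7 and 13.5 in ES cells, against 4.61 and 4.32 in MEF. The pluripotent libraries were nearly level and all far above MEF. The log2 differences from MEF were 1.49, 1.42 and 1.42 for 3F+IL6, 4F and ES (SE 0.07 each; limma adjusted p = 1.01e-06, 1.17e-06 and 1.14e-06). Against ES cells they were 0.07 in 3F+IL6 (95% interval −0.09 to 0.23) and 0.01 in 4F clones (−0.16 to 0.17).

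Pot1b (chromosome 17, 55651951 to 55712628) encodes the POT1 protein that in mouse controls trimming of the overhang's complementary strand. It was far scarcer, at 2.87 and 3.87 RPKM in 3F+IL6 clones, 2.71 and 3.26 in 4F clones, 4.77 and 4.91 in ES cells, against 1.98 and 2.25 in MEF. ES cells were highest and fibroblasts lowest, with the clones between. It fell against ES cells by 0.43 in 3F+IL6 clones (SE 0.13, limma adjusted p = 0.0267) and by 0.55 in 4F clones (SE 0.13, adjusted p = 0.00862). The 3F+IL6 call was lost in the fit of those 4 libraries and without ES 1, ES 2 or 3F+IL6 clone 1, and the 4F call without 4F clone 1. Against MEF it was higher by 0.48 in 3F+IL6, by 0.35 in 4F clones and by 0.91 in ES cells. The 4F call (adjusted p = 0.0409) was lost in 8 of the 15 alternatives that tested it, and the 3F+IL6 call with quantile normalization and without MEF 1. The ratio of the paralogs is given as a description and was not tested. Pot1a per Pot1b was 5.06 and 3.68 in 3F+IL6 clones, 5.0 and 4.22 in 4F clones, 2.87 and 2.75 in ES cells, against 2.33 and 1.92 in MEF, so the clones lay above all other libraries. At 50 bases, 0% of the words of Pot1a and 1.88% of those of Pot1b occur in other genes, so little of either can be shared between them.

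**Figure D2:**
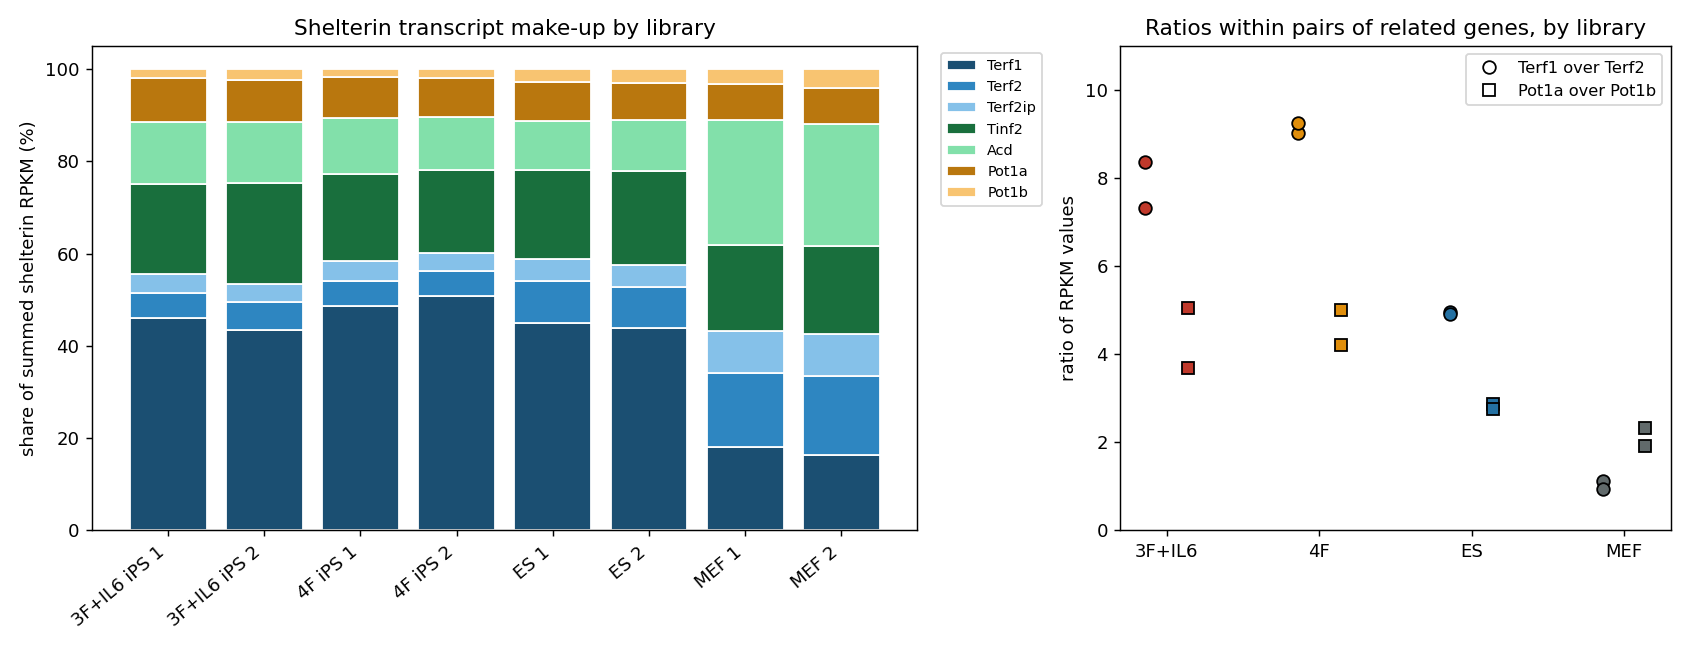
Left, share of the summed RPKM of the 7 shelterin genes held by each (percent, stacked to 100%) in each library. Right, RPKM ratios of Terf1 to Terf2 (circles) and Pot1a to Pot1b (squares), 1 point per library. Terf1 holds 43.5% to 50.7% in clones and ES cells and 16.3% to 18.1% in MEF, where Acd holds 26.5% to 27.2%.

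The sum of the 7 shelterin genes was 152 and 158 RPKM in 3F+IL6 clones, 154 and 162 in 4F clones, 164 and 165 in ES cells, against 59.8 and 55.1 in MEF. The fibroblasts thus had less of it and in other proportions. Terf1 made up 43.5% to 50.7% of the sum in the 6 pluripotent libraries, against 18.1% and 16.3% in MEF. Acd made up 10.6% to 13.5%, against 27.2% and 26.5%. Tinf2 and Pot1a kept nearly the same share in all 8 libraries, 17.8% to 21.8% and 7.70% to 9.54%. The Terf2 share was 5.49% and 5.95% in 3F+IL6 clones, 5.38% and 5.48% in 4F clones, 9.09% and 8.92% in ES cells, against 16.0% and 17.2% in MEF. Shares of a sum are not independent of each other, so a larger share of one gene lowers the rest.

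Rif1 (chromosome 2, 52072832 to 52122383) encodes the replication timing and DNA break repair protein RIF1. It was at 34.4 and 38.3 RPKM in 3F+IL6 clones, 33.1 and 38.6 in 4F clones, 47.4 and 49.3 in ES cells, against 4.49 and 4.74 in MEF. The clones overlapped with each other, lay below ES cells and were far above MEF. The ratio to MEF was 7.87 for 3F+IL6, 7.77 for 4F and 10.5 for ES. The log2 differences were 2.73, 2.71 and 3.14 (SE 0.09 each; limma adjusted p = 2.54e-07, 2.45e-07 and 1.29e-07), and that of ES cells was the largest of all 10 genes in any comparison. Against ES cells Rif1 fell by 0.40 in 3F+IL6 and by 0.42 in 4F clones (SE 0.09; limma adjusted p = 0.00649 and 0.00477), and these calls held in every alternative. Fibroblast markers were higher in the clones than in ES cells, and Rif1 is low in fibroblasts; the part of these markers in the difference was not tested.

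**Figure D3:**
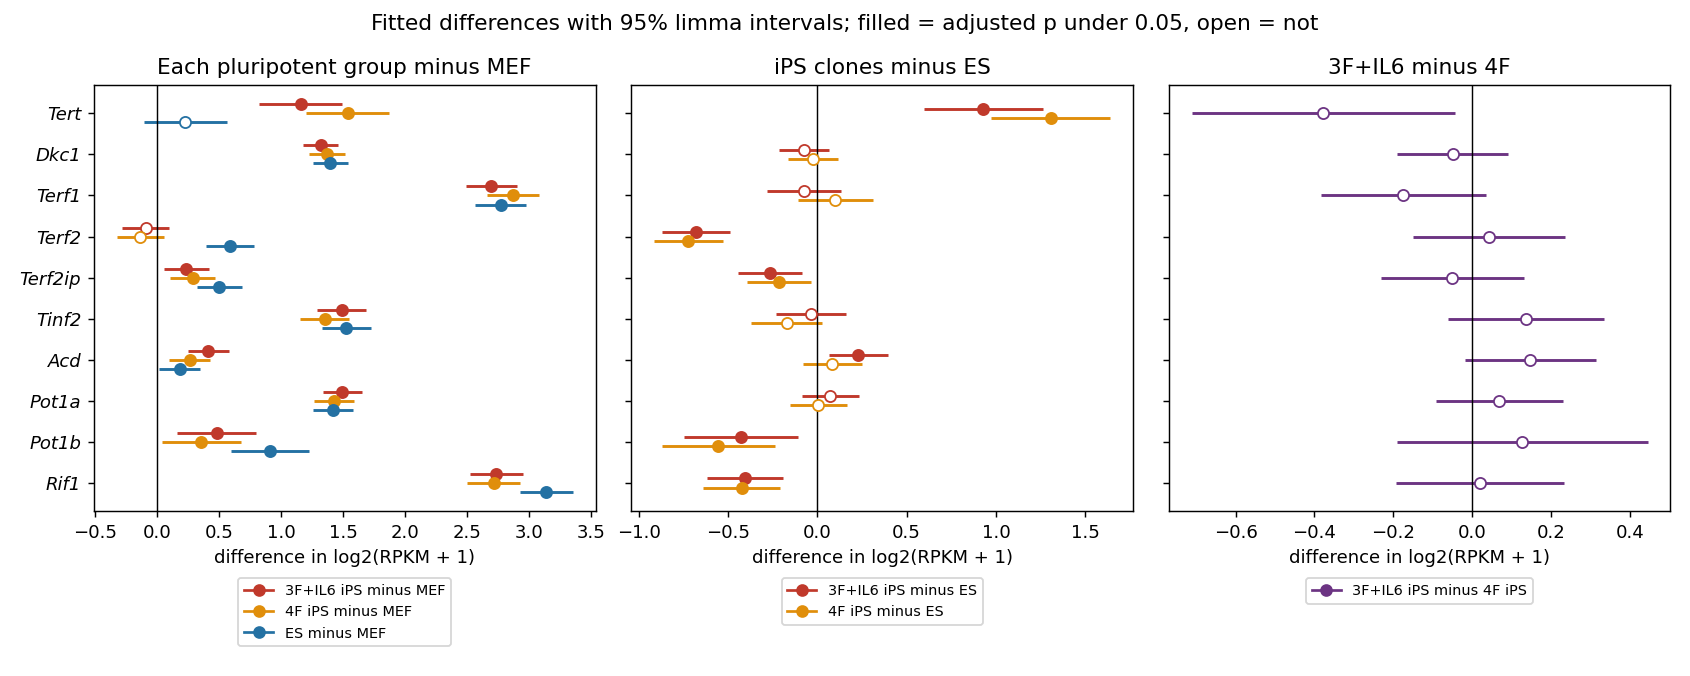
Fitted differences in log2(RPKM + 1) with 95% limma intervals for the 10 genes: each pluripotent group minus MEF (left), each kind of clone minus ES (middle) and 3F+IL6 minus 4F clones (right); filled points passed an adjusted p of 0.05. Terf1 and Rif1 lie farthest right against MEF, Tert alone lies far right against ES cells, and no point is filled between the kinds of clone.

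Set in order of level per length, Dkc1 led the 10 in every library, with Terf1 in place 2 and Rif1 in place 3 in all 6 pluripotent libraries. In MEF Acd was in place 2 and Tinf2 in place 3, with Terf1 in places 4 and 5 and Rif1 in places 8 and 7. Tert and Pot1b held places 9 and 10 in every library. Each comparison with ES cells divided the genes in the same way for both kinds of clone, which share the ES libraries: Tert was higher, Terf2, Terf2ip, Pot1b and Rif1 were lower, and Dkc1, Terf1, Tinf2 and Pot1a did not pass. Acd alone differed between the kinds in that respect, at 0.23 in 3F+IL6 and 0.08 in 4F clones. The direct difference in Acd, 3F+IL6 against 4F, was 0.15 (SE 0.07, 95% interval −0.02 to 0.31, limma adjusted p = 0.247), so the kinds were not shown to differ in it.

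Between 3F+IL6 and 4F clones the other 8 genes gave intervals around 0 as well. They were −0.19 to 0.09 for Dkc1, −0.38 to 0.03 for Terf1, −0.15 to 0.23 for Terf2, −0.23 to 0.13 for Terf2ip, −0.06 to 0.33 for Tinf2, −0.09 to 0.23 for Pot1a, −0.19 to 0.44 for Pot1b and −0.19 to 0.23 for Rif1. On the log2(RPKM + 1) scale, a difference of 0.5 in either direction lies outside each of these 8 intervals. For Pot1b, whose RPKM is low, this limits a change in RPKM itself less tightly. The intervals rest on a spread pooled over all groups. The median of the 10 genes was 0.03, equal to that of all genes at 2 decimals. Of all 13200 genes 177 were called in this comparison and 3198 had an unadjusted p under 0.05.

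Genes that work with these 10 were grouped into 5 further lists. In the list of the CST complex, which fills in the C-rich strand at chromosome ends, and of end processing, 7 of 10 genes fell and 1 rose against ES cells in each kind of clone. Of all genes tested, 30.3% were lower and 33.1% higher in 3F+IL6 clones, and 33.5% lower and 33.7% higher in 4F clones. Without ES 1 or ES 2 the count that fell in 3F+IL6 clones was 5. The 4 with the smallest p in ES cells against MEF were Rpa1, Blm, Fen1 and Exo1, of single-strand binding, repeat unwinding, flap cutting and resection. All were higher than MEF in every pluripotent group and lower in the clones than in ES cells. Fen1 was at 39.3 and 46.5 RPKM in 3F+IL6 clones, 35.6 and 38.9 in 4F clones, 66.0 and 66.5 in ES cells, against 20.7 and 18.9 in MEF. It fell by 0.62 in 3F+IL6 and 0.81 in 4F clones against ES cells (SE 0.09; limma adjusted p = 0.0011 and 0.00028). The 3 CST subunits, picked out after their values were seen, did not move together. Ctc1, the one riser, was at 43.3 and 33.1 RPKM in 3F+IL6 clones, 46.7 and 44.1 in 4F clones, 18.3 and 18.2 in ES cells, against 7.67 and 8.39 in MEF. Stn1, listed as Obfc1, was at 6.70 and 9.96 RPKM in 3F+IL6 clones, 6.57 and 7.78 in 4F clones, 20.7 and 19.2 in ES cells, against 7.99 and 7.06 in MEF. Against ES cells Ctc1 rose by 1.01 and 1.27 on the log2 scale in 3F+IL6 and 4F clones (SE 0.12; limma adjusted p = 0.00037 and 0.00013). Obfc1 fell by 1.19 and 1.36 (SE 0.17; limma adjusted p = 0.00089 and 0.00043). Ten1 fell by 0.48 and 0.49 (SE 0.11; limma adjusted p = 0.0061 and 0.0055).

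Proteins that act on TRF1 were listed as 5 genes, of which 3 rose and 1 fell against MEF in each kind of clone. In ES cells 3 rose and 2 fell, a count of falls that became 1 in 9 of 16 alternatives. Of all genes tested, 49.4%, 49.2% and 49.7% were higher than in MEF in 3F+IL6 clones, 4F clones and ES cells. The shares that were lower were 32.6%, 34.4% and 32%. The faller in all groups was Fbxo4, a ubiquitin ligase subunit that in human cells marks TRF1 for destruction. It was at 0.320 and 0.602 RPKM in 3F+IL6 clones, 0.412 and 0.228 in 4F clones, 0.891 and 0.879 in ES cells, against 4.76 and 4.86 in MEF. It was highest in MEF, and any link to the level of the Terf1 transcript was not tested. It passed the filter on low values through MEF alone, so its calls against MEF follow in part from that filter and are given as a description. The risers were the poly-ADP-ribose polymerase Tnks2 and the nucleolar GTPase genes Gnl3 and Gnl3l, known in human cells to bind TRF1. Gnl3 was at 140 and 135 RPKM in 3F+IL6 clones, 146 and 163 in 4F clones, 148 and 146 in ES cells, against 68.9 and 69.8 in MEF. Gnl3l was also higher in the clones than in ES cells, by 0.55 in 3F+IL6 and 0.63 in 4F (SE 0.07; limma adjusted p = 0.00067 and 0.00035).

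Of 8 telomere chromatin genes, 0 rose and 4 fell against ES cells in 3F+IL6 clones, and 0 rose and 6 fell in 4F clones, with medians of −0.27 and −0.39 on the log2 scale beside 0.01 and 0.00 for all genes. Among all genes tested, 30.3% were lower and 33.1% higher in 3F+IL6 clones, and 33.5% lower and 33.7% higher in 4F clones. The count of telomere chromatin genes that fell became 1 in 3F+IL6 clones without ES 1 and 2 in 4F clones without 4F clone 1. Suv39h2, a histone H3 methyltransferase gene, was at 8.35 and 9.83 RPKM in 3F+IL6 clones, 7.78 and 9.47 in 4F clones, 11.8 and 12.7 in ES cells, against 3.28 and 2.83 in MEF. Atrx and Daxx, which together place histone H3.3 at telomeres, were higher than MEF in all 3 pluripotent groups. Against ES cells Atrx fell in 4F clones by 0.42 (limma adjusted p = 0.018), while in 3F+IL6 clones it gave −0.32 (adjusted p = 0.054); Daxx passed in neither. Zbtb48, a gene for a repeat-binding protein that in human cells limits telomere length, fell against ES cells by 0.49 in 4F clones and gave −0.18 in 3F+IL6 clones; its difference between the kinds was 0.32 (SE 0.09, limma adjusted p = 0.11).

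Genes that sense ends as breaks, with partners of RIF1, were counted next. Of 10, 9 rose against MEF in 3F+IL6 clones, 10 in 4F clones and 10 in ES cells, and 0 fell, where 49.4%, 49.2% and 49.7% of all genes tested were higher. The Ku genes Xrcc5 and Xrcc6, whose products hold broken ends, rose most among those named. Xrcc5 was at 50.0 and 57.9 RPKM in 3F+IL6 clones, 49.6 and 54.8 in 4F clones, 64.2 and 60.1 in ES cells, against 8.36 and 8.86 in MEF. Its log2 differences from MEF were 2.51, 2.47 and 2.72 (SE 0.09; limma adjusted p = 3.4e-07, 3.3e-07 and 2.1e-07). Mad2l2, which works downstream of RIF1 to hold back resection, rose by 1.42, 1.75 and 1.56 in 3F+IL6, 4F and ES. Atm, the kinase that TRF2 restrains, was higher than MEF in all 3 groups but fell against ES cells by 0.29 in 3F+IL6 and 0.47 in 4F clones (SE 0.08; limma adjusted p = 0.013 and 0.0015). The 3F+IL6 call was lost in the fit of those 4 libraries and without ES 1 or ES 2.

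**Figure D4:**
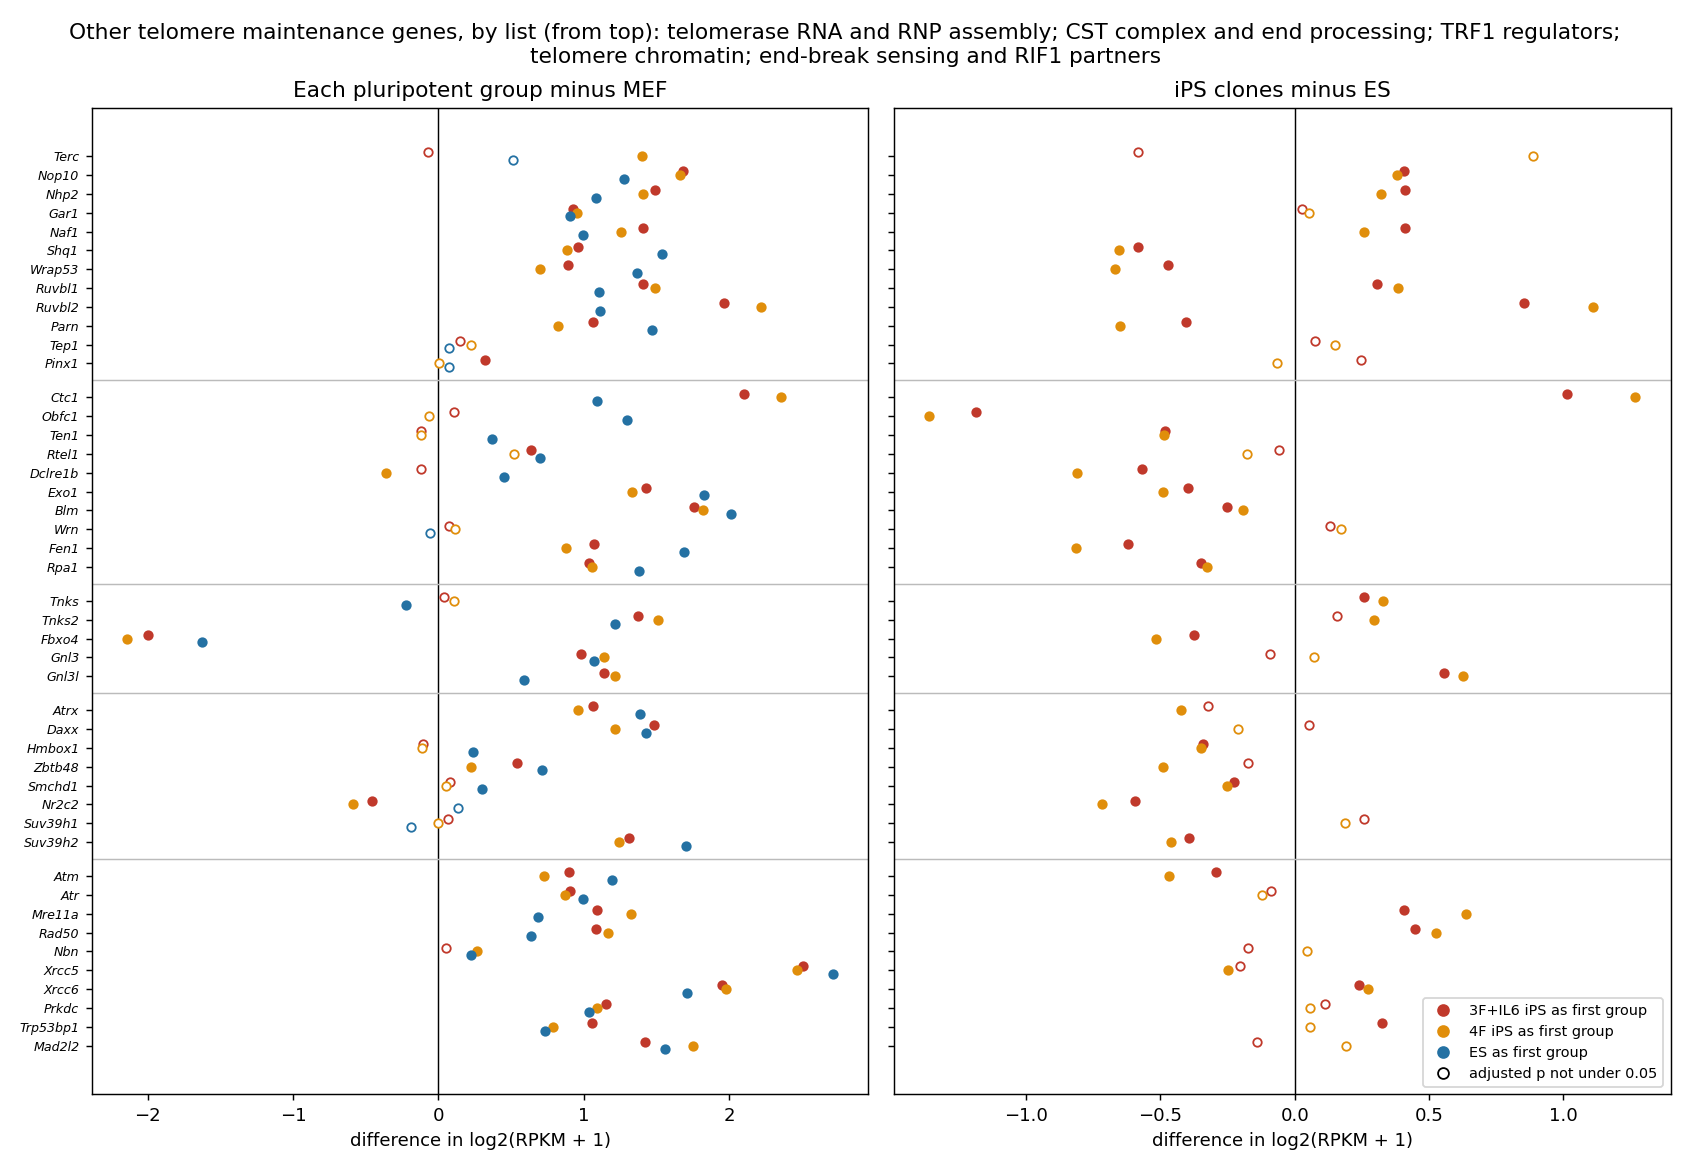
Fitted differences in log2(RPKM + 1) for the genes of 5 further telomere lists, separated by grey lines: pluripotent groups minus MEF (left) and clones minus ES (right); open points did not pass an adjusted p of 0.05. Most genes lie right of 0 against MEF, Fbxo4 lies far left, and against ES cells Ctc1 and Ruvbl2 lie on the right and Obfc1 on the left.

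Mouse ES cells pass now and then through a short state with Zscan4 and Tcstv transcripts in which telomeres lengthen. All 8 genes listed for it were at 0 in both MEF libraries, and 2 of the 8 passed the filter on low values, which left the other 6 untested. Their summed level was 2.26 and 1.88 RPKM in 3F+IL6 clones, 5.91 and 4.87 in 4F clones and 5.02 and 4.37 in ES cells. Zscan4f passed that filter through 4F clones and ES 1 alone, so its differences are given as a description. It was at 0.367 and 0.419 RPKM in 3F+IL6 clones, 1.90 and 1.18 in 4F clones and 1.40 and 0.924 in ES cells. The 3F+IL6 clones lay 0.62 under ES cells on the log2 scale (SE 0.16), which is not read as a test result. Against 4F clones the difference in 3F+IL6 clones was −0.85, which was not called. Tcstv1 was at 0.830 and 0.170 RPKM in 3F+IL6 clones, 1.52 and 1.44 in 4F clones and 0 and 0.101 in ES cells. Zscan4 genes are near-identical copies, so reads could be assigned to the wrong member, and single values are uncertain.

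The genes whose patterns over the 8 libraries were most like those of Tert, Terf1, Pot1b and Rif1 were sought among 10138 genes with a group mean of at least 5 RPKM, by Pearson's r of log2(RPKM + 1). This is a description of 8 points that share 4 groups, depth and strain. Nearest to Tert were Npepps (r = 0.9971), Trit1 (0.9968) and Lpin1 (0.9964). Trit1 was at 23.8 and 18.1 RPKM in 3F+IL6 clones, 26.7 and 26.8 in 4F clones, 8.67 and 9.24 in ES cells, against 7.44 and 7.44 in MEF, with the order of groups seen for Tert. Nearest to Terf1 were Cebpz (0.9992), Supt16h (0.9987) and 2410127L17Rik (0.9985). Pot1b was followed most closely by Zfp781 (0.9945), Zfp830 (0.9943) and 1700034H14Rik (0.9931). For Rif1 they were Ppp6r3 (0.9996), Hells (0.9993) and Rpap1 (0.9992). Hells was at 116 and 131 RPKM in 3F+IL6 clones, 113 and 129 in 4F clones, 146 and 152 in ES cells, against 18.6 and 18.9 in MEF, below ES cells and far above fibroblasts in both kinds of clone.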

How the data were processed

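The 8 deposited tables hold 1 value per gene symbol and library; 1 stray text row per table was left out. Libraries of poly-A RNA from 500 ng of total RNA were prepared with a TruSeq v2 kit and read at 50 bp, per the labels' protocols. The submitters' processing notes name the build mm10. Which aligner, counter and gene models were used is not given in the sources used here. The deposited values were read as RPKM, since low values times transcript length fall near steps that are constant within a library. Only 49.3% to 56.1% of low values were whole within 0.1 read, so counts were not recovered and depths are estimates. Genes at 1 RPKM or more in 2 or more libraries were tested, as log2(RPKM + 1). limma 3.58.1 in R 4.3.3 fitted group means with trended variance; the median SE of a difference was 0.102 with 6.94 degrees of freedom. Coordinates come from GENCODE M21. The 10 genes, the further lists and the tests were chosen with earlier results of these data known. Named genes are the 10, up to 4 per further list with the smallest p in ES against MEF, list members called between the kinds of clone, and the 3 most like Tert, Terf1, Pot1b and Rif1. Each p-value rests on 1 spread per gene, pooled over the pairs of all 4 groups (clones or replicates as labelled) and drawn by limma toward that of other genes. The p-values for 3F+IL6 against 4F clones thus rest in part on the ES and MEF replicates. Markers of other cell types (blood, endothelium, muscle, keratinocyte) summed to 29.1 to 45.2 RPKM in clones, 26.4 and 28.4 in ES cells, against 19.8 and 19.7 in MEF; Des was lower in 3F+IL6 than in 4F clones (−0.71), a call lost in 8 of 16 alternatives. The alternatives were a pseudocount of 0.1, no filter, a mean of at least 5 RPKM, median centring, quantile normalization, no variance trend, the 4 libraries compared alone, the replicate number as a block, and each library left out.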

Additional observations from a re-analysis of the deposited data

How the results depend on the processing

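No called difference of the 10 genes changed sign in any of the 16 alternatives. The count of all genes called in 3F+IL6 against 4F clones, 177, depended most on the processing: it was 56 with a pseudocount of 0.1, 315 with quantile normalization, 12 in the fit of the 4 clones alone, 36 with the replicate block, and 6 to 4802 with 1 library left out, the highest without 3F+IL6 clone 1. Of the 10 genes, 0 to 2 were called there with 1 library left out; the 2 were Tert and Tinf2 (0.24), without 3F+IL6 clone 1. For 3F+IL6 clones against ES cells the count of 6 became 3 in the fit of those 4 libraries and 3 to 6 with 1 library left out. For 4F clones against ES cells the count of 5 became 3 with the stricter filter, which removes Tert and Pot1b, and 3 to 6 with 1 library left out. Of the small differences that changed sign, none was called in any alternative. Between 3F+IL6 and 4F clones, Rif1 was −0.0191 with median centring; with 1 library left out it ran from −0.0869 to 0.127, Dkc1 from −0.12 to 0.0187, Terf2 from −0.036 to 0.12 and Pot1b from −0.0395 to 0.292. Against ES cells, Tinf2 in 3F+IL6 clones was 0.0351 with quantile normalization and −0.138 to 0.0686 with 1 library left out; in 4F clones Dkc1 ran from −0.0567 to 0.0070 and Pot1a from −0.0055 to 0.0163. Over all 10 genes and comparisons, 875 values kept direction and side of the threshold, 47 lost a call, 13 gained one and 13 changed sign. Replicate numbers were read as names of libraries, and whether same-numbered libraries shared a preparation was not tested. Deviations of same-numbered libraries correlated at 0.108 for 3F+IL6 with 4F clones and 0.214 for ES with MEF, and at −0.055 to 0.028 otherwise. With the block, 6, 4, 9, 9, 8 and 0 of the 10 genes were called in 3F+IL6 and 4F clones against ES cells, the same against MEF, ES cells against MEF, and 3F+IL6 against 4F clones; the calls it ended were Terf2ip in 4F clones against ES cells and Acd in ES cells against MEF. Scaling moved the median of all genes against MEF, which was 0.263, 0.248 and 0.271 for 3F+IL6, 4F and ES, to 0.149, 0.173 and 0.184 with median centring and to 0.0623, 0.0869 and 0.146 with quantile normalization. The cause of these changes was not tested. With 2 libraries a group, the spread of any single gene is poorly known, and Tert and Pot1b rest on as few as 111 and 112 reads by estimate.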
